A study of Mus musculus with 72 samples.

Results

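The genes described are nuclear-encoded subunits of the respiratory chain and of ATP synthase, chosen by their symbols. These were Ndufa with a number, Ndufab1, Ndufb, Ndufc, Ndufs and Ndufv with a number, Sdha to Sdhd, and symbols that start with Uqcr, with Cox4 to Cox8 or with Atp5. Subunits with other symbols, such as Cyc1 of complex III, fall outside this rule. The rule found 73 of the 20239 named genes on the array, each measured by 1 probe set: 33 of complex I, 4 of complex II, 6 of complex III, 18 of complex IV (with Ndufa4, whose product is now placed there) and 12 of complex V. Transcript levels came from 72 whole-transcript arrays of the tibialis anterior (TA), a fast muscle, and the soleus (SOL), a slow postural muscle, of 36 male C57BL/6 mice aged 5 months. In mKO mice, floxed Bmal1 (gene symbol Arntl) was deleted by a Cre recombinase transgene under the Mlc1f promoter, which drives it in skeletal muscle fibres, and Ctrl mice were littermates without Cre. Both muscles of each animal were taken at Zeitgeber time (ZT) 0, 4, 8, 12, 16 or 20, with chow at all times. ZT0 was lights on and ZT12 lights off. This gave 24 groups of 3 arrays by muscle, genotype and time, each animal giving 1 array per muscle. All values are log2 signals that had been normalized together, so that a difference of 1 is a doubling, and levels of different probe sets are not compared.

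Complex I takes electrons from NADH and complex II from succinate, ubiquinone carries them to complex III, and cytochrome c carries them on to complex IV, which reduces oxygen. Complexes I, III and IV pump protons, and ATP synthase (complex V) uses the gradient to make ATP. Oxidative fibres hold more of these complexes than glycolytic ones, several complex IV subunits exist as a muscle form and a form of other tissues, and the nuclear factors NRF1, ETS-family GABP, YY1 and the estrogen-related receptors, with their coactivator PGC-1alpha, are known to act on promoters of these genes. BMAL1 is a core clock activator that binds E-boxes as a pair with CLOCK. The 13 subunits encoded in mitochondrial DNA were not analysed here.

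Promoters of 60 of the 73 genes were found in the RefSeq table (build GRCm38.p6). Both strands of the 250 bases before and the 50 bases after each start were searched for 6 sets of letters: CACGTG (E-box), TTATGTAA (D-box), TCAAGGTCA (estrogen-related receptors), GCGCATGC (NRF1), CCGGAAG (ETS) and AAGATGGC (YY1), and overlapping matches were kept. The NRF1 letters stood in 7 subunit promoters (11.7%, against 3.05% of 27025 gene promoters), the ETS letters in 13 (21.7%, against 9.93%) and the YY1 letters in 10 (16.7%, against 3.19%), and in 1 when only the 250 bases before the start were read. E-box letters stood in 4 (6.67%, against 8.09%), D-box letters in 1 (1.67%, against 1.11%) and the receptor letters in 2 (3.33%, against 0.466%). A match describes these windows only. The 250 bases before the start are given for 5 genes on which the results below turn, 5′ to 3′ on the gene's strand, with the matched letters in capitals: Ndufb7 had the largest genotype difference in TA (chr8:83566508-83566757, plus strand, ETS), Ndufa8 was called in both muscles (chr2:36049339-36049588, minus strand, NRF1), Atp5g3 holds both an E-box and the receptor letters (chr2:73911327-73911576, minus strand), and Cox6a1 (chr5:115348959-115349208, minus strand, 2 overlapping NRF1 matches and ETS) and Atp5e (chr2:174464102-174464351, minus strand, ETS) had a daily rhythm in 1 group each.
Ndufb7: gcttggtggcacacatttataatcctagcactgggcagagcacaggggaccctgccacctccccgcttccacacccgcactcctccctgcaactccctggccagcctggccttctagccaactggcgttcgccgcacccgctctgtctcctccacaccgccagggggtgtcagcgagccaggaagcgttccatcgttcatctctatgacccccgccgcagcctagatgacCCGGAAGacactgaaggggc
Ndufa8: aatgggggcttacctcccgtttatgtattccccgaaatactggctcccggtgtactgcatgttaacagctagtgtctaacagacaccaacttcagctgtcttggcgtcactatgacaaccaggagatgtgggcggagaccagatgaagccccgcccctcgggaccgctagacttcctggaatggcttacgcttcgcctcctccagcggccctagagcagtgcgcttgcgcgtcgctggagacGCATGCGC
Atp5g3: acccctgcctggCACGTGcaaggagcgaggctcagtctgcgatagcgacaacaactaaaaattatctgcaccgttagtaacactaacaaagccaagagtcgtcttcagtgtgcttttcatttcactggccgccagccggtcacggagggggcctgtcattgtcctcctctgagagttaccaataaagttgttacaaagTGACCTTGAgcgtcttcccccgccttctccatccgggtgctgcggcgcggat
Cox6a1: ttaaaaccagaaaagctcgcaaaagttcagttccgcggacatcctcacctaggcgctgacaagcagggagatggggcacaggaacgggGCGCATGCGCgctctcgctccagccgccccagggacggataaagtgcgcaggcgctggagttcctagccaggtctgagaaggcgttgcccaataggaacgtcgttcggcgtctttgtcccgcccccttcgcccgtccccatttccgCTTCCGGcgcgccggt
Atp5e: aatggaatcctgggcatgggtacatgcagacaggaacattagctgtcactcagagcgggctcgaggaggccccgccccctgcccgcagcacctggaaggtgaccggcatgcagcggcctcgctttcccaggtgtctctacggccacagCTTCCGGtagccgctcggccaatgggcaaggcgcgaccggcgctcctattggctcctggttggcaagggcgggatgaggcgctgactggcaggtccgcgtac

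Arntl, the targeted gene, was lower in mKO at ZT0 and higher at ZT12 in both muscles, and in TA also lower at ZT4 (limma). In TA at ZT0 its values were 8.46, 8.44 and 8.07 in mKO, against 9.37, 9.18 and 9.12 in Ctrl, and at ZT12 7.80, 7.40 and 7.92 in mKO, against 7.19, 6.84 and 7.02 in Ctrl. The differences were -0.90 ± 0.14 and 0.70 ± 0.14 (SE, limma, adjusted p = 0.000246 and 0.00377), and the mean over the 6 times did not pass (-0.07 in TA and 0.09 in SOL, adjusted p = 0.465 and 0.508). Neither labels nor files say whether this probe set reads the deleted part, so its level is no direct check of the knockout. Whole muscle also holds cells without Cre, and in such bulk samples fewer cells of a type and less RNA per cell cannot be told apart. All 12 fast fibre genes listed were higher in TA, and all 12 genes of the slow fibre list were higher in SOL. The slow fibre list also held Myh2, the myosin of fast oxidative IIa fibres. Liver transcripts stood out in TA of Ctrl ZT0 replicate A, where the mean of 9 liver markers was 11.46, against 5.41 to 6.33 on the mKO arrays of TA, and to a lesser degree in both muscles of Ctrl ZT4 replicate C (8.23 in TA and 7.83 in SOL). Animals carried identification numbers of the series BM3 (23 animals), BM2* (7) and BM2 (6), whose meaning the labels do not give. At ZT20 all mKO animals were BM2 and all Ctrl animals BM3, so genotype and series cannot be told apart there.

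In TA the subunit genes were higher in mKO than in Ctrl across all 5 complexes, by small amounts. Of the 73 genes, 29 rose and 0 fell (limma, adjusted p under 0.05), where 6.76% of all 20239 genes rose and 8.06% fell. These shares include genes of low signal, while 70 of the 73 had a signal above the median of all genes. In a fit of genes above that median only, 34 of the 70 rose and 0 fell (limma). That fit tested fewer genes but called 3083 in either direction, against 3000 in the fit of all 20239, so its background share was higher too. The median difference was 0.079 for the subunit genes and 0.020 for all genes, and 67 of the 73 had a positive value. The mean level over the 73 genes ran from 10.90 over 11.01 to 11.07 (lowest, median and highest of 18 arrays) in mKO, against 10.83, 10.91 and 11.00 in Ctrl. Groups overlapped when all times were put together, but at ZT0, ZT12, ZT16 and ZT20 each of the 3 mKO arrays lay above each of the 3 Ctrl arrays.

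**Figure D1:**
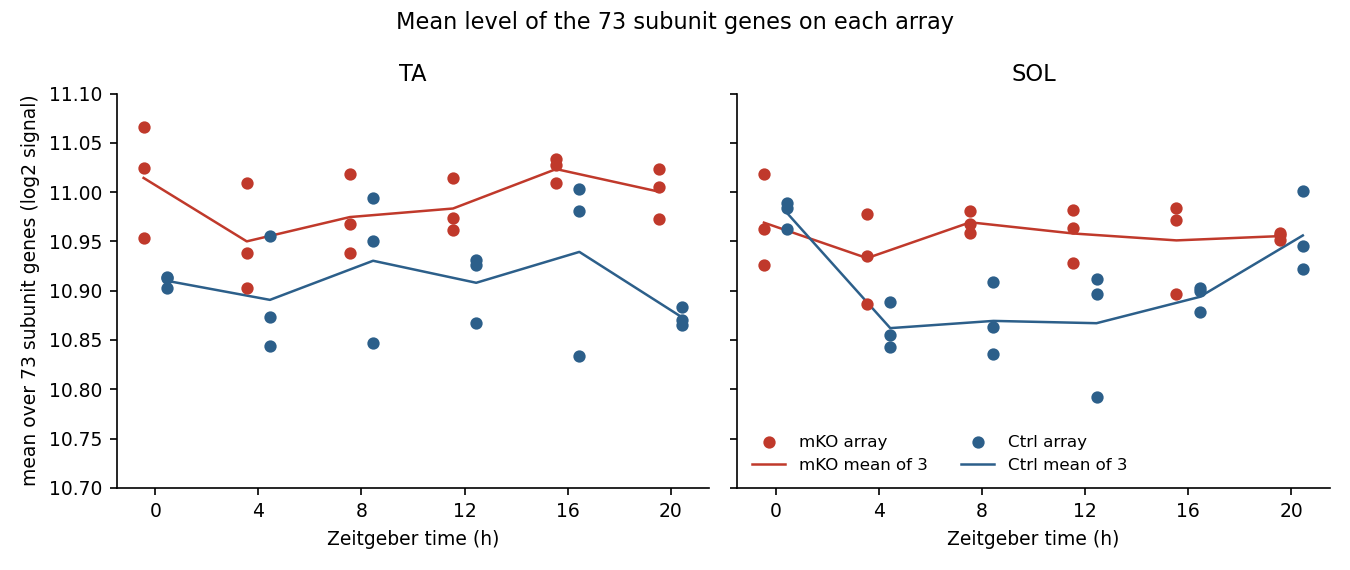
Mean log2 signal over the 73 subunit genes (vertical axis) on each array against Zeitgeber time (h), in TA (left) and SOL (right); red points are mKO arrays, blue points Ctrl arrays, and lines join the means of 3. In TA the mKO line lies above the Ctrl line at every time, and in SOL the lines meet at ZT0 and ZT20.

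Complex I, the largest group, had 12 of 33 genes higher in mKO TA and 0 lower, with a median difference of 0.085. Ndufb7, an accessory subunit of the membrane arm, had the largest difference: 9.86, 10.07 and 10.30 (lowest, median, highest) in mKO TA, against 9.64, 9.81 and 9.97 in Ctrl TA. The highest Ctrl arrays reached only the low end of the mKO range, and at 5 of the 6 times every mKO array was above every Ctrl array. Its difference was 0.26 ± 0.034 (1.2-fold, SE, limma adjusted p = 1.07e-06). Ndufa8, an accessory subunit on the intermembrane side, ran from 11.55 over 11.67 to 11.74 in mKO TA, against 11.37, 11.49 and 11.67 in Ctrl TA, a difference of 0.16 ± 0.029 (limma adjusted p = 0.000102). Among the core subunits, Ndufv1 (0.085), which binds NADH and FMN, Ndufs3 (0.14) and Ndufs8 (0.11) rose. Ndufs1, a large core subunit with iron-sulfur clusters, had 0.060 ± 0.042 (limma adjusted p = 0.385), Ndufv2 0.029 ± 0.024 (limma adjusted p = 0.465) and Ndufs7 -0.017. The other called genes were the accessory subunits Ndufb5, Ndufb8, Ndufb9, Ndufa1, Ndufa2, Ndufa7 and Ndufa10, with differences from 0.079 (Ndufa10) to 0.20 (Ndufa7). Ndufv3 and Ndufb3, both at 0.17, did not pass in TA (limma adjusted p = 0.053 and 0.0938).

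**Figure D2:**
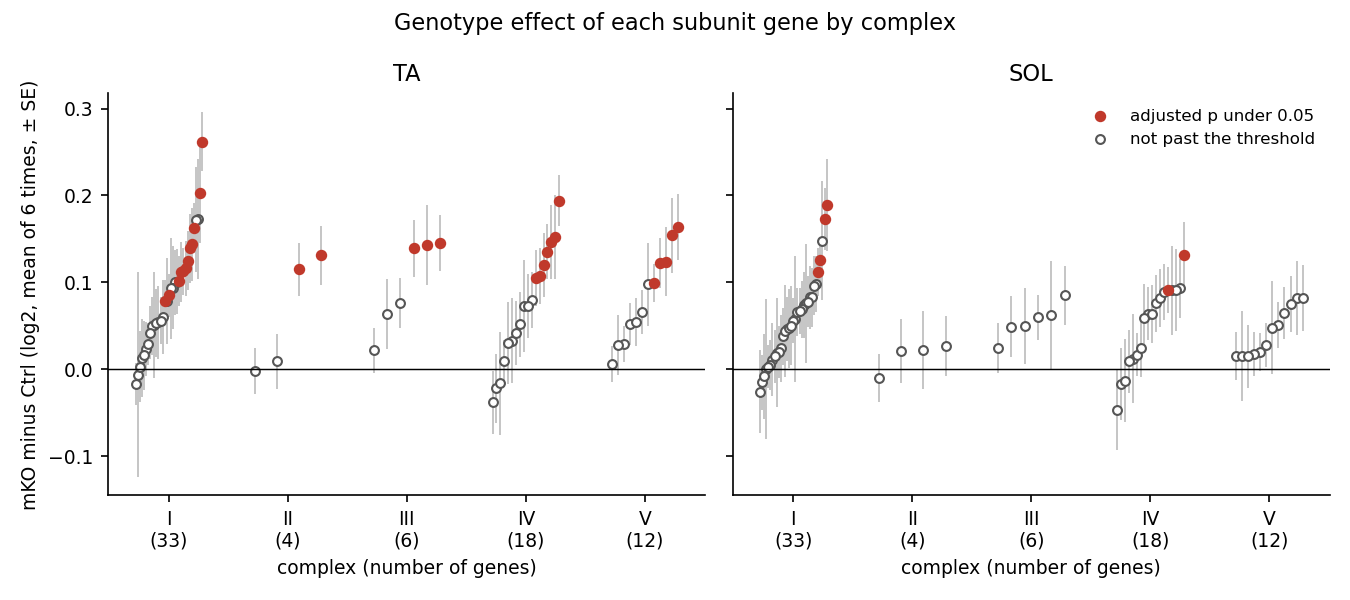
Difference mKO minus Ctrl (log2, mean of the 6 times, bars are SE) of each subunit gene, sorted within each complex, in TA (left) and SOL (right). Filled points passed an adjusted p of 0.05: 29 in TA, spread over all 5 complexes, and 6 in SOL, of complexes I and IV.

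Complex II split into its parts. Sdhb, the iron-sulfur subunit, ran from 11.62 over 11.71 to 11.85 in mKO TA, against 11.38, 11.60 and 11.77 in Ctrl TA (0.13 ± 0.034, limma adjusted p = 0.00706), and Sdhd, a membrane anchor, rose by 0.12. Both groups of arrays overlapped for either gene. Sdha, the flavoprotein that oxidises succinate, had -0.002 ± 0.026, and the other anchor, Sdhc, 0.009 ± 0.032.

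Complex III had 3 of 6 genes higher in mKO TA: Uqcrq, a small accessory subunit, Uqcrfs1, the Rieske iron-sulfur protein, and Uqcr10, another small subunit. Uqcrq ran from 11.57 over 11.74 to 11.84 in mKO TA, against 11.44, 11.58 and 11.75 in Ctrl TA, a difference of 0.145 ± 0.032 (limma adjusted p = 0.00167). Uqcrfs1 differed by 0.14 ± 0.033 and Uqcr10 by 0.14 ± 0.046. The core proteins Uqcrc1 (0.076 ± 0.029, limma adjusted p = 0.0803) and Uqcrc2 (0.022 ± 0.026) did not pass. Cyc1, the cytochrome c1 subunit left out by the symbol rule, did not pass either (0.046 ± 0.032, limma adjusted p = 0.371).

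Complex IV had 7 of 18 genes higher in mKO TA. Cox5a, on the matrix side of the enzyme, ran from 11.33 over 11.43 to 11.54 in mKO TA, against 11.12, 11.24 and 11.44 in Ctrl TA, and at 5 of the 6 times its groups did not overlap. It differed by 0.19 ± 0.029 (1.14-fold, limma adjusted p = 9.35e-06), and its partner on that side, the zinc-binding Cox5b, by 0.135 ± 0.032. Several complex IV subunits have a muscle form and a general form, and neither kind was called throughout. Of the muscle forms, Cox8b rose (0.11 ± 0.032), and Cox7a1 (0.073 ± 0.037) and Cox6a2 (-0.022 ± 0.039) did not pass. Of the general forms, Cox4i1 rose (0.147 ± 0.043), and Cox6a1 (0.033 ± 0.049), Cox6b1 (0.080 ± 0.033), Cox7a2 (0.052 ± 0.037), Cox7b (0.042 ± 0.037) and Cox8a (-0.038 ± 0.037) did not pass. Cox7a2l, a gene related to Cox7a2, did not pass either (-0.016 ± 0.059). Cox4i2, a form best known from lung, rose by 0.12 ± 0.037, and so did Ndufa4 by 0.11. Of the testis forms, Cox8c rose (0.15 ± 0.048, limma adjusted p = 0.0299), and Cox6b2 (0.073 ± 0.053) and Cox7b2 (0.030 ± 0.047) did not pass. Cox8c ran from 6.16 to 6.67 in mKO TA, against 6.01 to 6.52 in Ctrl TA, close to the array medians of 6.67 to 6.84, and whether such probe sets lie above background was not tested. Its call was lost without any of 8 single animals (limma adjusted p = 0.0517 to 0.0571).

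ATP synthase had 5 of 12 genes higher in mKO TA and 0 lower. Atp5a1, the alpha subunit of the catalytic head, ran from 12.84 over 12.94 to 12.99 in mKO TA, against 12.76, 12.84 and 12.89 in Ctrl TA. Of the 18 mKO arrays, 2 lay within the Ctrl range and 16 above it, and the difference was 0.099 ± 0.022 (limma adjusted p = 0.00179). Atp5o, which ties the head to the side stalk, rose by 0.16 ± 0.038, Atp5e, of the rotor stalk, by 0.15 ± 0.043, Atp5mpl, a small membrane protein, by 0.12 ± 0.040, and Atp5g3, which encodes the proton-carrying ring subunit, by 0.12 ± 0.029. Atp5b, the catalytic beta subunit, had 0.006 ± 0.021 (limma adjusted p = 0.892), with 13.57 to 13.65 in mKO TA and 13.56 to 13.70 in Ctrl TA. No probe set was named for Atp5g1 or Atp5g2, the other genes of the ring subunit. Of the 21 called genes with a promoter, 6 held the ETS letters (9.93% of all gene promoters) and 3 the E-box letters (8.09%), namely Atp5g3, shown above, Ndufa7 and Ndufv1. The NRF1 letters stood in 2 (3.05%), the receptor letters in 2 (0.466%), the YY1 letters in 1 (3.19%) and the D-box letters in 0 (1.11%). No count of letters was tested.

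**Figure D3:**
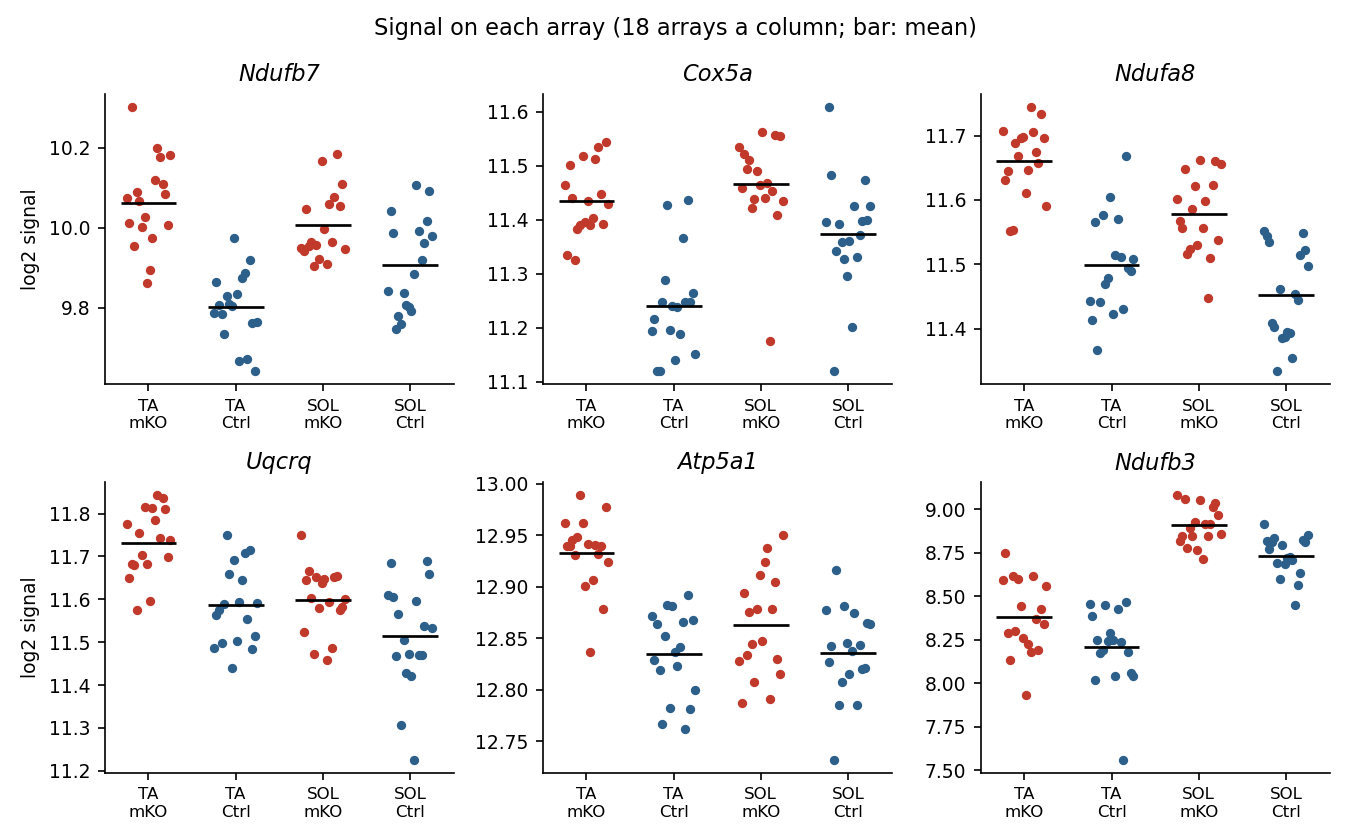
Log2 signal on each of 18 arrays per muscle and genotype (columns, points; bars are means) for 6 genes: Ndufb7, Cox5a, Ndufa8, Uqcrq, Atp5a1 and Ndufb3. The mKO arrays of TA sit higher than the Ctrl arrays of TA with partial overlap, and Ndufb3 is lower in TA than in SOL in both genotypes.

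By time, the median difference over the 73 genes in TA was 0.098 at ZT0, 0.065 at ZT4, 0.055 at ZT8, 0.074 at ZT12, 0.077 at ZT16 and 0.125 at ZT20, with 52 to 69 genes higher in mKO at each time. In all, 33 of the 73 genes (45.2%) had a higher mKO mean at all 6 times, where 10.9% of all genes did, and 0 had a lower one at all 6, where 10.4% did. Without ZT20, the time at which genotype and number series coincide, 16 genes (21.9%) were called, where 11.3% of all genes were, with a median of 0.069. Among BM3 animals 10 (13.7%) were called, where 9.3% of all genes were (median 0.081, 66 positive). Among the 13 BM2 and BM2* animals 0 were called, where 1.86% of all genes were (median 0.032, 53 positive). Animals of both genotypes were present at ZT0, ZT4, ZT8 and ZT16 in BM3, and at ZT8 and ZT12 in BM2 and BM2*. Only these times inform the differences within series. Both shares within series lay near those of all genes in either direction. The shares of all genes without ZT20, within series and after centring count both directions, while the subunit genes called in these fits all rose. With each array centred on its median, 19 genes (26%) were called, where 13.6% of all genes were (median 0.064). Without Ctrl ZT0 replicate A, the animal with liver transcripts, 28 were called.

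In SOL fewer subunit genes passed. Of the 73, 6 rose in mKO and 0 fell (limma), where 3.56% of all genes rose and 3.54% fell. In a fit of genes above the median level only, 8 of 70 rose and 0 fell (limma). That fit tested fewer genes but called 1588 in either direction, against 1436 in the fit of all genes, so its background share was higher. The share of subunit genes called there lay below this share in either direction. In the fit of all genes the median difference was 0.050, against 0.001 for all genes, and 66 of the 73 were positive. Mean levels over the 73 genes ran from 10.89 over 10.96 to 11.02 in mKO SOL, against 10.79, 10.90 and 11.00 in Ctrl SOL. The median difference was 0.002 at ZT0, 0.064 at ZT4, 0.109 at ZT8, 0.093 at ZT12, 0.056 at ZT16 and 0.007 at ZT20, nearest 0 at ZT0 and ZT20. At all 6 times, 14 genes (19.2%) had a higher mKO mean, where 5.77% of all genes did.

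The 6 genes were of complexes I and IV. Ndufa8 ran from 11.45 over 11.58 to 11.66 in mKO SOL, against 11.33, 11.45 and 11.55 in Ctrl SOL, a difference of 0.13 ± 0.025 (limma adjusted p = 0.000675). Ndufb3, an accessory subunit of the membrane arm, ran from 8.72 over 8.90 to 9.08 in mKO SOL, against 8.45, 8.75 and 8.92 in Ctrl SOL (0.17 ± 0.036, limma adjusted p = 0.00136). For both genes the middle of the mKO arrays lay near or above the top of the Ctrl arrays. Ndufv3 (0.19 ± 0.053), Ndufs3 (0.11 ± 0.028), the muscle form Cox8b (0.13 ± 0.037) and Cox5b (0.091 ± 0.027) also rose, with limma adjusted p from 0.00844 to 0.0284. Ndufa8, Ndufs3, Cox8b and Cox5b were thus called in both muscles. The call of Cox5b was lost without any of 7 single animals (limma adjusted p = 0.0503 to 0.0569). Of the genes followed in every comparison, Sdha had -0.010 ± 0.027, Uqcrc1 0.060 ± 0.026, Cox4i1 0.064 ± 0.031, Atp5b 0.020 ± 0.022 and Ndufs1 0.005 ± 0.029. Within BM3 animals 0 genes were called, where 2.86% of all genes were, and within BM2 and BM2* animals 0, where 0.825% were. These counts lay near the background, and the medians were 0.045 and 0.088. As in TA, the BM2 and BM2* fit compares the genotypes at ZT8 and ZT12 only.

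Whether the genotype difference itself differed between the muscles was tested within animals. No subunit gene passed (0 of 73, limma, where 2.71% of all genes did; 5, or 6.85%, at an unadjusted p under 0.05, where 11.7% of all genes were), so the longer list in TA does not show that the muscles differed. Ndufb7 was nearest: its difference was 0.164 larger in TA than in SOL (95% interval 0.067 to 0.262, limma adjusted p = 0.0591). For Cox8a, the interval was -0.225 to -0.028, and for Cox5a 0.017 to 0.185 (limma adjusted p = 0.228 and 0.277).

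Between TA and SOL, transcripts of subunit genes differed in both directions in every complex, as those of genes in general did. Within animals 30 of the 73 genes (41.1%) were higher in TA and 21 (28.8%) higher in SOL (limma), where 32.8% of all genes were higher in TA and 23.9% higher in SOL. The median difference was 0.033, against 0.030 for all genes, so the counts are close to the background and the results here are those of single genes. The mean over the 73 genes was higher in TA in 20 of 36 animals, with differences from -0.136 to 0.158. For comparison, the slow fibre genes had a median difference of -4.73 and the fast fibre genes of 0.75.

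**Figure D4:**
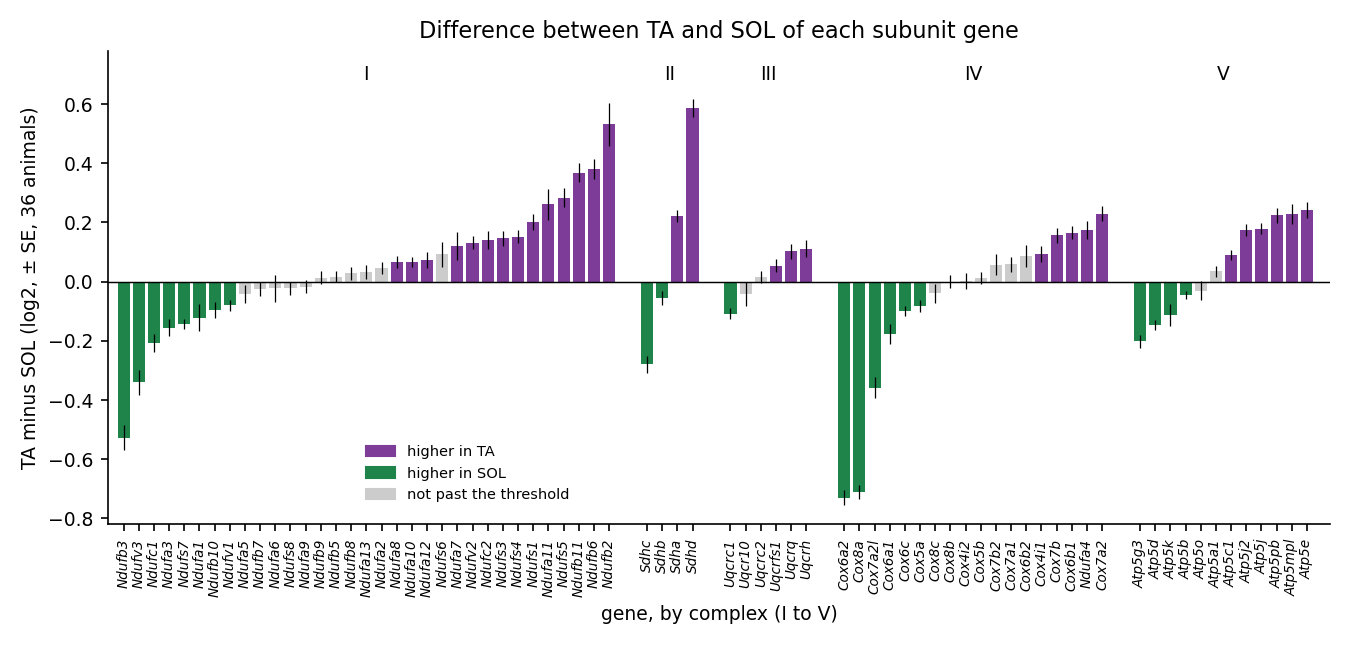
Difference TA minus SOL within 36 animals (log2, vertical axis, bars with SE) of each subunit gene, in complexes I to V. Purple bars were higher in TA and green bars higher in SOL (adjusted p under 0.05), grey bars did not pass; every complex holds purple and green bars, and Cox6a2 and Cox8a reach below -0.7.

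The complex IV forms gave the largest differences. Cox6a2, the muscle form of subunit VIa, ran from 12.28 to 12.78 in mKO TA and from 12.39 to 12.84 in Ctrl TA, against 13.15 to 13.57 in mKO SOL and 13.00 to 13.56 in Ctrl SOL. No TA array reached the lowest SOL array, and the difference was -0.73 ± 0.025 (limma adjusted p = 1.26e-21, 1.66-fold higher in SOL, TA higher in 0 of 36 animals). Cox8a, the general form of subunit VIII, differed as much (-0.71 ± 0.024, limma adjusted p = 1.24e-21, 0 of 36), while the muscle form Cox8b had 0.00 ± 0.022. Within subunit VIa the general form Cox6a1 was also lower in TA (-0.18 ± 0.035). In subunit VIIa the general form Cox7a2 was higher in TA in 36 of 36 animals (0.23 ± 0.025). The related gene Cox7a2l was lower (-0.36 ± 0.036), and Cox7a1, the muscle form, had 0.058 ± 0.027 (limma adjusted p = 0.0672). Cox4i1 (0.094), Cox6b1 (0.17) and Cox7b (0.16) were higher in TA. Cox4i2 (0.003), Cox6b2 (0.086), Cox7b2 (0.057) and Cox8c (-0.040) did not pass.

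Within complex II the 4 genes went apart: Sdhd (0.59 ± 0.031, 36 of 36 animals) and Sdha (0.22 ± 0.020, 36 of 36) were higher in TA, and Sdhc (-0.28 ± 0.028, TA higher in 1 of 36) and Sdhb (-0.056 ± 0.024, 11 of 36) higher in SOL. Sdhd ran from 11.68 to 12.01 in mKO TA and from 11.60 to 11.89 in Ctrl TA, against 11.00 to 11.41 in mKO SOL and 10.92 to 11.45 in Ctrl SOL, with no overlap between muscles. In complex I, Ndufb6 (0.38 ± 0.034), Ndufb11 (0.37 ± 0.031), Ndufs5 (0.28 ± 0.032) and Ndufs1 (0.20 ± 0.027) were higher in TA, and Ndufb3 (-0.53 ± 0.041, TA higher in 0 of 36) and Ndufs7 (-0.143 ± 0.018) higher in SOL. Uqcrc1 of complex III was higher in SOL (-0.109 ± 0.018). In ATP synthase, Atp5e (0.24 ± 0.027) and Atp5j of the side stalk (0.18 ± 0.018) were higher in TA, and Atp5g3 (-0.20 ± 0.021), Atp5d of the rotor stalk (-0.148 ± 0.017) and Atp5b (-0.045 ± 0.015) higher in SOL.

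Few subunit genes were called for a daily rhythm, and in TA about as few as among all genes. A fit of a cosine with a period of 24 h called 1 gene in mKO TA (1.76% of all genes), 0 in Ctrl TA (2.7%), 1 in mKO SOL (5.68%) and 2 in Ctrl SOL (6.05%), where the percentages are those of all genes called (limma). At an unadjusted p under 0.05 there were 6 subunit genes (8.22%, against 11.6% of all genes) in mKO TA, 2 (2.74%, against 11.8%) in Ctrl TA, 4 (5.48%, against 19.7%) in mKO SOL and 19 (26%, against 16.9%) in Ctrl SOL. Cox6a1 in mKO TA had 7.87, 8.26 and 7.91 at ZT4 and 8.58, 8.47 and 8.59 at ZT16, with an amplitude (mean to peak) of 0.27 and a peak at 15.6 h (limma adjusted p = 0.012). The 3 arrays at ZT16 all lay above the 3 at ZT4. In Ctrl TA its amplitude was 0.095 (limma adjusted p = 0.734), and in SOL 0.18 in mKO and 0.185 in Ctrl, neither past the threshold (limma adjusted p = 0.0969 and 0.0782).

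The other calls were in SOL. Cox8a in mKO SOL had an amplitude of 0.12 with a peak at 18.6 h, against 0.099 in Ctrl SOL (limma adjusted p = 0.0442 and 0.16). Atp5e averaged 9.73 at ZT0 and 9.80 at ZT12 in mKO SOL, against 9.87 and 9.52 in Ctrl SOL. Its amplitude was 0.047 in mKO SOL and 0.16, with a peak at 22.4 h, in Ctrl SOL (limma adjusted p = 0.76 in mKO and 0.0385 in Ctrl). Ndufb7 averaged 9.94 at ZT4 and 10.04 at ZT20 in mKO SOL, against 9.76 and 10.03 in Ctrl SOL. Its amplitude was 0.050 in mKO SOL and 0.12, with a peak at 18.4 h, in Ctrl SOL (limma adjusted p = 0.578 in mKO and 0.04 in Ctrl). The 3 SOL calls were each lost without any of 6 to 12 single animals (limma adjusted p up to 0.113). A difference in rhythm between mKO and Ctrl was called for 0 subunit genes in TA (0.104% of all genes) and 0 in SOL (0.0395%), with 2 and 3 at an unadjusted p under 0.05 (limma; 2.74% and 4.11%, where 3.36% and 5.26% of all genes were). ZT0 and ZT4 held only BM3 animals and ZT12 only BM2 and BM2* animals, so time and number series are tied, and with the series as a covariate no SOL rhythm was called.

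**Figure D5:**
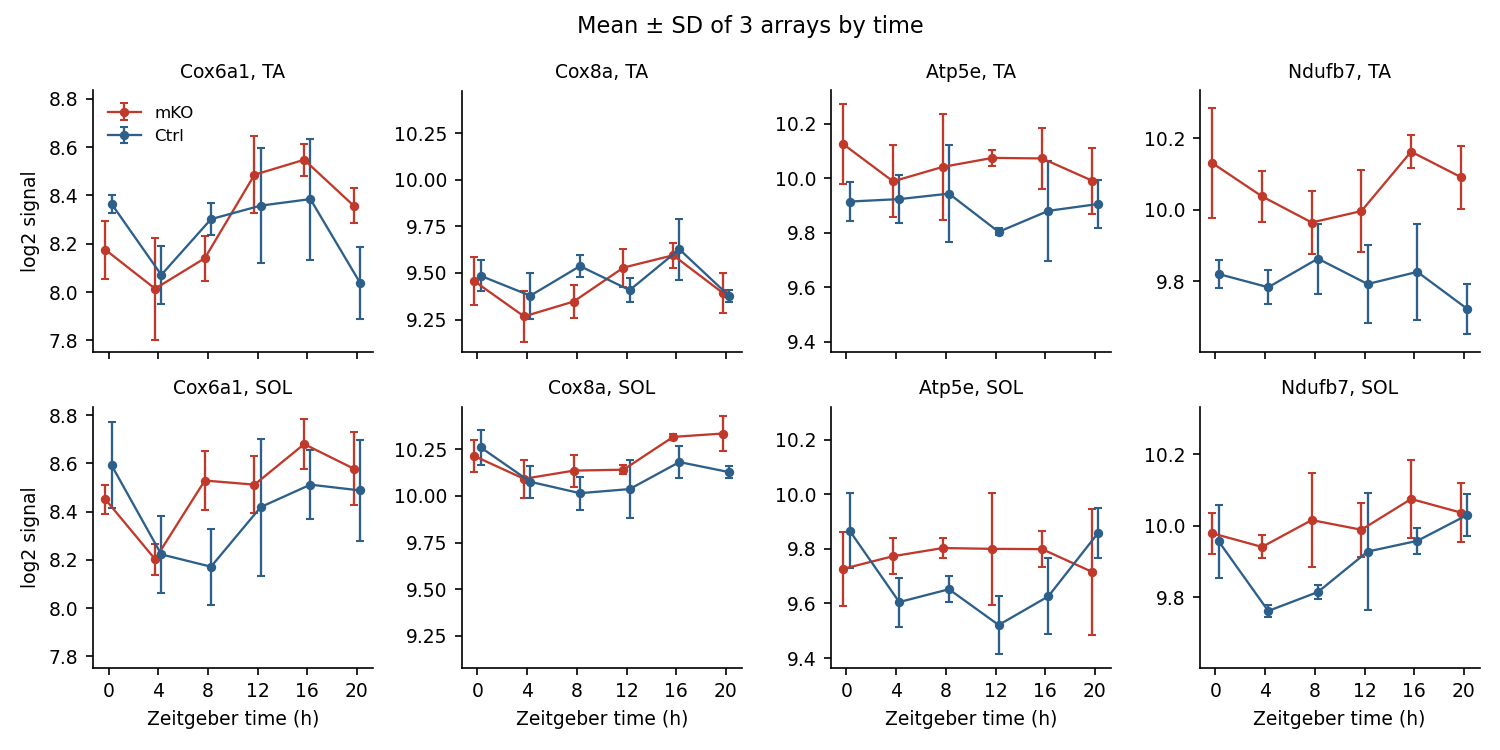
Mean log2 signal ± SD of 3 arrays against Zeitgeber time (h) for Cox6a1, Cox8a, Atp5e and Ndufb7 in TA (top) and SOL (bottom); red lines are mKO and blue lines Ctrl. Cox6a1 in mKO TA climbs between ZT4 and ZT16, and Atp5e in SOL varies little in mKO and is lowest at ZT12 in Ctrl.

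Genes that serve the chain without being subunits moved in both directions in TA, where 14.8% of all genes were called (7.1% in SOL). Of 44 assembly factors measured, 9 rose and 3 fell in mKO TA (27.3%, limma), with Foxred1, a complex I assembly factor, up by 0.28 ± 0.033, and Ndufaf5 and Cox11, which act in the assembly of complexes I and IV, lower (-0.39 and -0.23). In SOL 3 rose and 0 fell (6.82%), near the share of all genes. Of 18 electron carriers and enzymes that supply ubiquinone, 6 rose and 2 fell in TA (44.4%) and 6 rose and 3 fell in SOL (50%). This list included Cyc1, itself a complex III subunit, which passed in neither muscle. Coq5, of ubiquinone synthesis, rose in both muscles (0.22 ± 0.034 in TA and 0.19 ± 0.033 in SOL), and Coq10b, a ubiquinone-binding protein, fell in both, with -0.72 ± 0.054 in TA and -0.46 ± 0.050 in SOL (limma adjusted p = 1.34e-11 and 5.11e-08). The 12 citrate cycle genes had 2 higher and 1 lower in TA (25%) and 1 higher in SOL (8.33%). Of 15 nuclear regulators 13.3% were called in TA, near the share of all genes: only Esrrb, an estrogen-related receptor, rose in TA (0.21 ± 0.053), only Ppargc1a, which encodes PGC-1alpha, fell there (-0.29 ± 0.047, limma adjusted p = 2.47e-05), and 0 passed in SOL (limma, 4 at an unadjusted p under 0.05).

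Between muscles, 31 of the 44 assembly factors were higher in TA and 5 higher in SOL, with a median of 0.21, where the subunit genes had 0.033. Coa7 (0.69 ± 0.029), a complex IV assembly factor, was among those higher in TA. Gpd2, which passes electrons from cytosolic glycerol phosphate to ubiquinone, was higher in TA by 2.58 ± 0.030, and the citrate cycle enzyme Idh2 lower (-2.21 ± 0.032), as were the regulators Esrrg (-1.51 ± 0.037) and Esrrb (-1.37 ± 0.033). These gene lists were chosen with earlier results known, and no test of a list was made.

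Some fibre type genes and few markers of other cells were called for genotype. Among all genes, 14.8% were called in TA and 7.1% in SOL. In TA the mean of the slow fibre list (12 genes, with Myh2) ran from 8.11 over 8.41 to 8.71 in mKO, against 7.87, 8.12 and 8.70 in Ctrl. Of these 12 genes, 3 were higher in mKO, among them Casq2 (1.35 ± 0.070) and Myoz2 (0.81 ± 0.15), and 0 lower (25%, limma). In SOL the same mean was 12.48, 12.58 and 12.69 in mKO, against 12.48, 12.59 and 12.72 in Ctrl, but single genes moved in both directions: 1 of 12 was higher in mKO SOL (Casq2, 0.66 ± 0.048) and 5 lower (50%, limma), among them Tpm3 (-0.195 ± 0.044) and Myh7b (-0.19 ± 0.038). The fast fibre mean ran from 13.31 to 13.51 in mKO TA, against 13.37 to 13.49 in Ctrl TA. Of the 12 fast fibre genes, 1 was higher in mKO TA (Mylpf, 0.27 ± 0.037) and 1 lower (Myoz1, -0.13 ± 0.030). This share (16.7%, limma) lay near that of all genes. In SOL the fast fibre mean ran from 11.51 to 12.59 in mKO, against 11.71 to 12.57 in Ctrl. There 1 of the 12 genes was higher (Mylpf, 0.415 ± 0.049) and 3 lower (33.3%, limma). Among the lower ones were Myoz1 (-0.33 ± 0.048) and Myl1 (-0.17 ± 0.028). Of 7 adipocyte markers measured, 1 was lower in mKO TA (14.3%), and so was 1 of 7 fibroblast and tendon markers (14.3%). Of 7 endothelial, 5 macrophage, 3 erythroid and 9 liver markers 0 passed in TA. No marker list thus exceeded the share of all genes in TA. In SOL 1 of 7 endothelial markers rose (Kdr, 0.22 ± 0.049, 14.3%). Of 7 fibroblast and tendon markers, 1 rose (Scx, 0.28 ± 0.046) and 1 fell (Fmod, -0.30 ± 0.084), together 28.6%. Of the 7 adipocyte, 5 macrophage, 3 erythroid and 9 liver markers 0 passed (limma, 1 erythroid marker at an unadjusted p under 0.05). In a list of 7, 1 call makes 14.3%, so these shares in SOL rest on few genes. The part of fibre type or of other cells in the subunit differences was not tested.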

How the data were processed

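Total RNA of both muscles of 36 mice was measured on 72 arrays. The deposited values were log2 signals, made by the authors with RMA over all arrays, per the submitters' processing notes (no version given). No filter or further scaling was applied. Of 21225 probe sets, 20239 had 1 gene symbol and 986 were unnamed. Array medians ran from 6.67 to 6.84, and no detection calls were used. The number of arrays limits the precision. Each animal is a replicate, per the labels' animal numbers.

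Genotype was tested per muscle with limma 3.58.1 (R 4.3.3) on 12 group means, as the mean over 6 times of mKO minus Ctrl. Muscle and interaction tests used TA minus SOL within animals, and rhythm a 24 h cosine and sine. Fits within number series had additive terms for genotype and time. Benjamini-Hochberg adjustment ran over the 20239 genes of a test, threshold 0.05. All tests were first tested on simulated data with independent noise on each array. Shared effects of an animal, a replicate letter or a number series were not simulated.

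TA and SOL of an animal were taken as pairs because the labels give the animal. Pearson r of their deviations from group means had a median of 0.046 (-0.197 to 0.352, over 0.1 in 11 of 36 pairs). The labels tie the replicate letters of mKO and Ctrl to no shared animal, litter or day. Same-letter arrays had a median of 0.153 (-0.28 to 0.322, over 0.1 in 21 of 36 pairs), higher than that of the animals. Because the labels give no link, the letters were not taken as pairs, and counts with the letters as a block are given below.

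The members and lists were chosen with earlier results of these data known. Named by rule were Ndufs1, Sdha, Uqcrc1, Cox4i1 and Atp5b, the forms of complex IV and ring subunits, up to 8 called members per direction by p (8 per rhythm test), up to 2 genes per list and direction, and Arntl. Other members were named after their values were seen. Assembly factors, electron carriers, citrate cycle, nuclear regulators, mitochondrially encoded subunits, slow and fast fibre genes and liver, erythroid, macrophage, tendon and fibroblast, endothelial and adipocyte markers were the lists.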

Additional observations from a re-analysis of the deposited data

How the results depend on the processing

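The count of subunit genes called for genotype in TA, 29 of 73 as reported, was 19 with each array centred on its median, 10 in BM3 animals only, 0 in BM2 and BM2* animals only, 16 without ZT20 and 30 to 35 with the other settings. Leaving out each animal gave 26 to 32. The 35 came with array weights, where 5388 of all genes were called in either direction, against 3000 in the main fit. The 6 calls in SOL became 0 in BM3 animals and 0 in BM2 and BM2* animals, 5 to 9 otherwise, and 5 to 8 with single animals left out. The 9 came with array weights, where 2126 of all genes were called in either direction, against 1436 in the main fit. Between muscles 51 were called, 44 to 55 elsewhere and 49 to 52 with animals left out. The interaction, 0 as reported, was 1 with genes above the median level, with array weights and with no replicate block (72 arrays unpaired), and was 0 to 1 with animals left out. Rhythm calls in mKO SOL (1) became 0 with centring, 2 with array weights, 0 with the number series as covariate and 0 with an F test over the times, and 0 to 1 with animals left out. In Ctrl SOL (2) they became 0 with centring, 7 with genes above the median level, 5 with a trended and robust prior, 0 with the number series and 0 with the F test, and 0 to 3 with animals left out. The call in mKO TA was 0 under the F test, and Ctrl TA and both rhythm differences were 0 throughout. The replicate block on letters, which do not pair animals by the labels, gave 32 in TA and 6 in SOL, and 3 in Ctrl SOL rhythm. In all, 59 of 78 counts stayed within 1.5 times and 19 moved. Of the values of named genes, 48 of 1560 lost and 15 gained a call, and 0 reversed; why was not tested. Fewer samples in the series subsets and fewer genes in the filtered fit change the power by construction. Arrays near the median signal cannot be ordered against background here.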

Other observations

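Within groups of 3 arrays the subunit genes varied little: the median SD was 0.097 in TA and 0.095 in SOL, against 0.15 and 0.14 for all genes. The array whose 73 values lay lowest against its group was TA of Ctrl ZT16 replicate B, on average 0.105 below the group mean with 7 of 73 genes above it, and without that animal 28 genes were called for genotype in TA.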
